A study of Mus musculus with 8 samples.

Results

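The genes described here are 8 of the mouse Wnt ligand genes and the 2 genes that serve every Wnt protein on its way out of the cell. The ligands are *Wnt2b*, *Wnt3*, *Wnt4*, *Wnt5a*, *Wnt5b*, *Wnt7a*, *Wnt7b* and *Wnt11*, and the secretion genes are *Porcn* and *Wls*. These 10 genes were chosen by name, with earlier results of these data known. All 10 were among the 28432 genes in the count table. Bulk RNA-seq had been done on 4 control and 4 *Lhx2* CKO samples from mouse embryos at E15.5, each sample being both retinas of 1 embryo. Control embryos were Lhx2 flox/+; Hes1 CreERT2/+ and CKO embryos were Lhx2 flox/KO; Hes1 CreERT2/+. All 8 embryos were exposed to tamoxifen at E11.5, given by gavage at 0.15 to 0.2 mg/g body weight, and all 8 carried 1 *Hes1* allele that expresses the tamoxifen-dependent Cre. Cre therefore acts in cells that express *Hes1*, mainly retinal progenitor cells, and the control animals also carry 1 floxed *Lhx2* allele that it can delete. The question addressed is which of these genes differ between retinas that lost *Lhx2*, a LIM-homeodomain transcription factor of retinal progenitors, and those that kept 1 allele.

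Wnt proteins are secreted lipid-modified signals. Porcn, an acyltransferase of the endoplasmic reticulum, attaches a fatty acid to the nascent ligand, and the carrier Wls binds this lipid, escorts the ligand to the cell surface and is then recycled by the retromer complex. Outside the cell, ligands bind Frizzled receptors with Lrp5 or Lrp6 to stabilize beta-catenin, or with Ror and Ryk co-receptors to act on cell polarity and movement. In the eye, Wnt signals are known for roles in the ciliary margin and the retinal pigment epithelium, in axon guidance and in the growth of the vasculature.

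Total counts were 13143587 to 15063867 per control sample and 13955259 to 19099937 per CKO sample. Markers of the labelled tissue were abundant in all 8 samples. The summed normalized counts of 9 progenitor markers were 77131 to 84152 in controls and 41212 to 48168 in CKO samples (6 of 9 fell, 0 rose), and those of 13 retinal ganglion cell markers were 68512 to 79943 and 94633 to 101922 (7 of 13 rose, 0 fell). The *Lhx2* counts themselves (3082 to 3631 in controls, 2557 to 2868 in CKO samples) check little, because they include reads from exons outside the deleted part. Control replicate 3 and CKO replicate 1 stood apart from the other samples of their groups, as a chi-square of the counts per gene was 12.8 to 15.3 for pairs with that control and 14.0 to 20.8 for pairs with that CKO sample, where the remaining pairs gave 3.54 to 7.58. Among the 10 genes, control replicate 3 had the highest control value for 5 and the lowest for 3. CKO replicate 1 had the highest CKO value for 4 and the lowest for 3, and CKO replicate 3 had the highest for 2 and the lowest for 5, so that for these genes CKO replicate 1 was no more often at an extreme than another CKO sample. In bulk tissue, fewer cells of a type and less RNA per cell cannot be told apart, and the part of these shifts in cell type markers in the results below was not tested.

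*Wnt7b* was the 1 gene of the 10 that passed the cutoff, and it rose 7.98-fold in the CKO retina. *Wnt3*, *Porcn* and the very weakly expressed *Wnt7a* were higher in every CKO sample than in any control, and *Wnt5b* was lower in every CKO sample than in any control, but none of these 4 passed. *Wnt5a*, *Wls*, *Wnt2b*, *Wnt4* and *Wnt11* had overlapping groups. Because of *Wnt7b*, the summed level of Wnt ligand transcripts went from 9.0 ± 1.02 to 24.8 ± 1.20 RPKM (mean ± SD, n = 4 per group; RPKM is reads per kilobase of exon, scaled to the total count of the sample). The study's minimum for a test, 20 normalized counts or more in 3 or more samples, was kept. Passing means a Benjamini-Hochberg adjusted p under 0.001 in edgeR's quasi-likelihood test of genotype. The study itself tested with DESeq2, in which *Wnt3* and *Porcn* passed here as well. Of the 10 genes, 8 were tested and 1 passed, which is 12.5%, against 8.61% of the 13891 genes tested in the table. In the upward direction 3.64% of all genes passed and in the downward direction 4.97%, and 0 of the 8 fell. Groups did not overlap for 4 of the 8 tested genes, against 33.8% of all genes tested. At a looser adjusted p below 0.05 the count was 4 of 8 (3 higher, 1 lower), against 33.3% of all genes. The median log2FC (the log2 ratio of CKO over control) of the 8 was 0.43, beside 0.0053 for all genes tested.

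**Figure D1:**
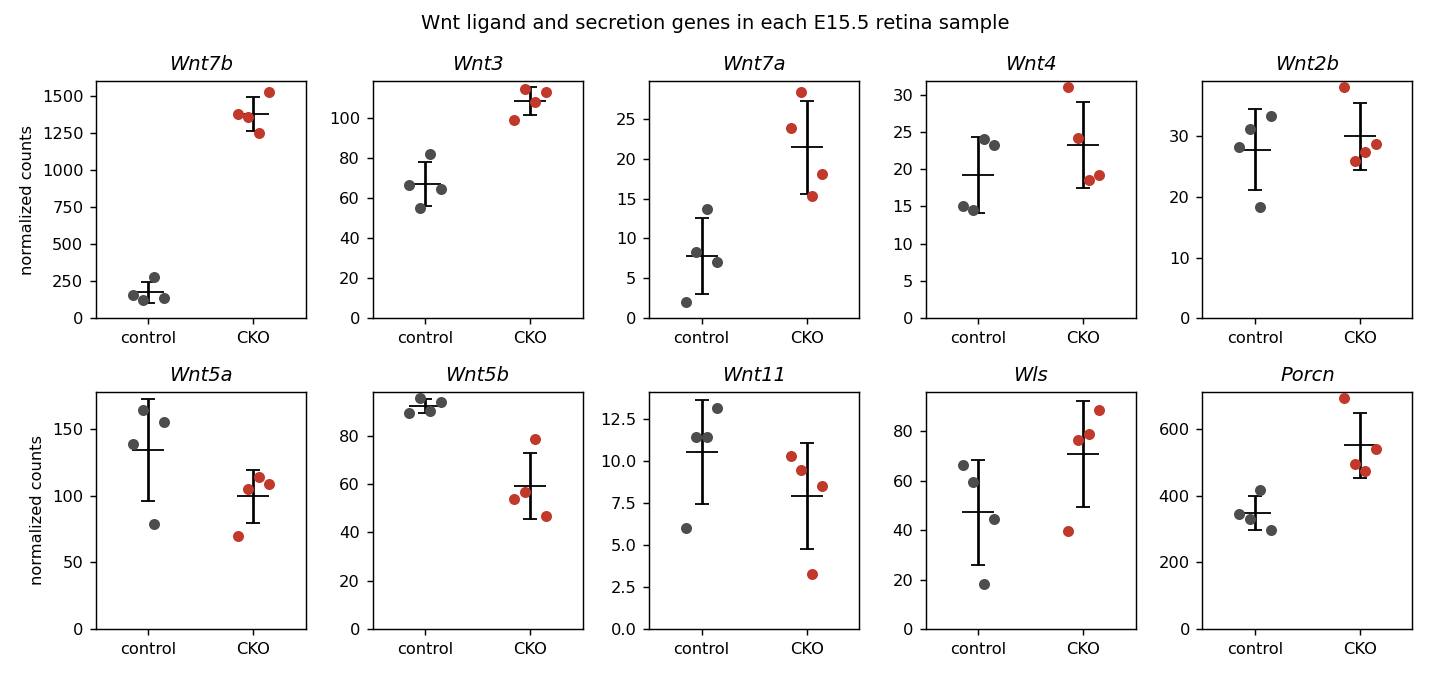
Normalized counts (linear axis from 0) of the 10 genes in each of the 4 control (grey) and 4 CKO (red) samples, replicates 1 to 4 from left to right, with the mean (long line) and SD (whiskers). For *Wnt7b* the CKO samples lie between 1249 and 1528 and the controls between 126 and 275.1, whereas for *Wnt5a*, *Wls*, *Wnt2b*, *Wnt4* and *Wnt11* the groups overlap.

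RefSeq promoter windows (GRCm38.p6) were held for 7 of the 10 genes, 10 windows in all, and not for *Wnt7b*, *Wnt5a* and *Porcn*. The 250 bases before the start are printed for the 3 genes with a window whose groups did not overlap, *Wnt3*, *Wnt7a* and *Wnt5b*. They are written 5′ to 3′ on the strand of the gene, with capitals for the 2 motifs found, GGGCGG (the GC box, or CCGCCC on the other strand) and CTTTGAT (the core that TCF and LEF factors bind, or ATCAAAG).
*Wnt3*, chr11:103773925-103774174, plus strand: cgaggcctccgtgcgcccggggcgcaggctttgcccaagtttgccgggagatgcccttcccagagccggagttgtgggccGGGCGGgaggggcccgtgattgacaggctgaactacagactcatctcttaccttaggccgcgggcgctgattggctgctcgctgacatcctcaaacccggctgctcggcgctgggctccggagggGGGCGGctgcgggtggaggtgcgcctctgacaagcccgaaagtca
*Wnt7a*, chr6:91411354-91411603, minus strand: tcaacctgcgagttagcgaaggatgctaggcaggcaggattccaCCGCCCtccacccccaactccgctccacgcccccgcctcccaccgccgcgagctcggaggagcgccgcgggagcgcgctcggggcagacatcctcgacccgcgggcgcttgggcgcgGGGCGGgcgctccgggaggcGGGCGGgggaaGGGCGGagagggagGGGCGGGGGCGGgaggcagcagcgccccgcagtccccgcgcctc
*Wnt5b*, chr6:119449387-119449636, minus strand: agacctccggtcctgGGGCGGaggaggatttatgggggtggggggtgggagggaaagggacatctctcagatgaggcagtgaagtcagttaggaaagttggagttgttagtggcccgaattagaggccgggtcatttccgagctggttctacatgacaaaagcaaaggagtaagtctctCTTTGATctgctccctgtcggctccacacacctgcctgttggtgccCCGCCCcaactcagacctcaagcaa
The *Wnt3* window holds 2 GC boxes and the *Wnt7a* window 6, at a GC content of 68.0% and 77.6% beside a median of 52.4% over all 32851 windows. This *Wnt5b* window belongs to 1 of 3 starts listed for the gene, lies within the span of the gene and holds CTTTGAT in 1 place. The window before the 5′ end of the gene (chr6:119544348-119544597) and the remaining *Wnt5b* window hold no CTTTGAT. The GC box was present in 8 of the 10 windows and in 32.7% of all windows. CTTTGAT was present in 2 of the 10, this one and 1 of the 2 for *Wnt11*, and in 3.21% of all windows. TAATTA, a core recognised by many homeodomain proteins, reads the same on both strands, was in 0 of the 10 windows and was in 4.84% of all windows. These matches describe the letters in the windows only.

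*Wnt7b* (ENSMUSG00000022382, chr15:85535437-85582473, minus strand, GRCm38) encodes a ligand that acts mainly through beta-catenin and is known, with the closely related Wnt7a, for its part in the vasculature of the central nervous system. The 4 controls, in the order of their replicate numbers, had 159.1, 126, 275.1 and 136.7 normalized counts, and the 4 CKO samples, in the same order (kept below), had 1378, 1353, 1249 and 1528. The lowest CKO sample lay far above the highest control, which was replicate 3. The mean went from 174 ± 68.7 to 1377 ± 115 (SD, n = 4 per group), a log2FC of 3.00 with an SE of 0.18 and a 95% interval of 2.59 to 3.40 (edgeR adjusted p = 9.4e-07). In fold this interval is 6.02 to 10.6. By p, *Wnt7b* ranked 46th of the 13891 genes tested. The reads behind these values were 655 over the controls and 5880 over the CKO samples. The exons of *Wnt7b* share 324 bp, 6.62% of their length, with *AU022754* on the opposite strand, whose reads from unstranded libraries cannot be separated from it there. That gene itself was counted at 25 reads over the controls and 146 over the CKO samples. Without control replicate 3 the log2FC of *Wnt7b* was 3.29, and without CKO replicate 1 it was 2.99.

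*Wnt7a* (chr6:91363981-91411363, minus strand) was close to the floor of detection and did not meet the minimum for testing. It had 2, 8, 12 and 7 reads in the controls and 30, 33, 14 and 17 in the CKO samples. In normalized counts this was 2.01, 8.33, 13.7 and 7.09 against 23.8, 28.4, 15.3 and 18.1. The groups did not overlap, although CKO replicate 3 was close to control replicate 3. When no filter was applied, the log2FC was 1.49 with a 95% interval of 0.72 to 2.25 (edgeR adjusted p = 0.0034), and under edgeR's own filter the adjusted p was 0.015. *Wnt7a* thus did not pass in either fit, and at these counts the interval leaves its size poorly known.

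*Wnt3* (chr11:103774150-103817957, plus strand), a beta-catenin ligand that is also known to guide retinal axons in their target field, had 66.5, 55.2, 82.2 and 64.8 normalized counts in controls and 99.3, 114.6, 108.3 and 113.1 in CKO samples. Every CKO sample was above every control, and control replicate 3 was again the highest control. The means were 67.2 ± 11.2 and 109 ± 6.89, a log2FC of 0.70 with an SE of 0.13 and a 95% interval of 0.41 to 0.99. The edgeR adjusted p of 0.0021 did not pass. It passed without control replicate 3 (log2FC 0.81, edgeR adjusted p = 6.1e-04) and in DESeq2 (adjusted p = 3.3e-04).

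*Wnt2b* and *Wnt4* were weak, and neither differed beyond the spread between samples. *Wnt2b* (chr3:104945272-104961921, minus strand), a ligand known from the peripheral eye, had 28.2, 31.2, 18.3 and 33.4 normalized counts in controls and 38.1, 25.9, 27.4 and 28.8 in CKO samples. The lowest sample was control replicate 3 and the highest was CKO replicate 1. The log2FC was 0.12 (95% interval -0.40 to 0.63, edgeR adjusted p = 0.74), and its sign turned when either of these samples was left out, to -0.03 without control replicate 3 and to -0.04 without CKO replicate 1. *Wnt4* (chr4:137277489-137299726, plus strand), known for its roles in the kidney and the female gonad, had 15.1, 14.6, 24.0 and 23.3 normalized counts in controls and 31.0, 24.1, 18.6 and 19.2 in CKO samples. Both groups had samples between 18.6 and 24.0, so they overlapped. Its log2FC was 0.30 (95% interval -0.29 to 0.88, edgeR adjusted p = 0.42), so a difference of up to 1.85-fold lies within the interval.

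*Wnt5a*, *Wnt5b* and *Wnt11*, which act largely without beta-catenin through Ror and Frizzled receptors, had log2FC values below 0. *Wnt5b* (chr6:119432531-119544347, minus strand) had 89.6, 95.8, 90.2 and 94.2 normalized counts in controls and 54.0, 56.9, 78.8 and 47.0 in CKO samples. The 4 controls lay close together, and the highest CKO sample, replicate 3, was still below them all. The means were 92.5 ± 3.02 and 59.2 ± 13.7, a log2FC of -0.65 with an SE of 0.16 and a 95% interval of -0.99 to -0.30, and the edgeR adjusted p of 0.0088 did not pass. *Wnt5a* (chr14:28504750-28527448, plus strand), known for outgrowth of the limb and body axis, had 138.9, 164.5, 78.8 and 154.9 normalized counts in controls and 69.9, 105.1, 113.8 and 108.8 in CKO samples. The overlap came from control replicate 3, the 1 control below the highest CKO samples. The log2FC was -0.45 (95% interval -0.93 to 0.03, edgeR adjusted p = 0.14), and without control replicate 3 it was -0.63 (edgeR adjusted p = 0.0097), which also did not pass. *Wnt11* (chr7:98835112-98855195, plus strand), known from the heart and the branching kidney, had 6, 11, 10 and 13 reads in controls and 13, 11, 3 and 8 in CKO samples, too few to be tested. With no filter its log2FC was -0.37 with a 95% interval of -1.20 to 0.46, so neither direction was resolved at this depth.

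**Figure D2:**
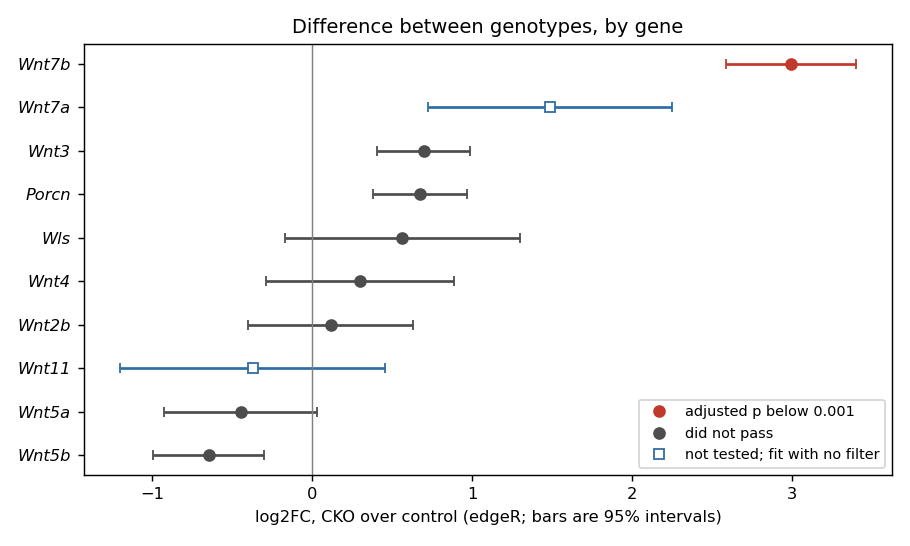
The log2FC of CKO over control for each gene (points) with its 95% interval (bars) from edgeR. *Wnt7b* (red, 3.00) is the 1 gene with an adjusted p below 0.001, grey circles did not pass, and the open blue squares for *Wnt7a* (1.49) and *Wnt11* (-0.37) come from a fit with no filter because they were below the minimum for testing.

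The ligands were then compared with each other per length, in RPKM over exons. Among the ligands in controls, *Wnt7b* (2.36 ± 0.94) and *Wnt5b* (2.31 ± 0.077) shared the top, with overlapping ranges. *Wnt5b* was the highest ligand in control replicates 1, 2 and 4, and *Wnt7b* in replicate 3. *Wnt3* (1.45 ± 0.24) and *Wnt5a* (1.14 ± 0.32) followed, below *Wnt5b* in every sample but overlapping each other. *Wnt2b* (0.44 ± 0.10) and *Wnt4* (0.30 ± 0.080) overlapped, as did *Wnt11* (0.17 ± 0.049) and *Wnt7a* (0.16 ± 0.10) at the bottom of the order.

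In the CKO samples *Wnt7b* stood alone at 18.3 ± 1.45, the highest ligand in all 4. *Wnt3* (2.30 ± 0.12), *Wnt5b* (1.45 ± 0.34) and *Wnt5a* (0.83 ± 0.16) came next in that order with ranges that did not overlap. *Wnt3* and *Wnt5b* thus stood in the opposite order to that in controls. *Wnt2b* (0.47 ± 0.090), *Wnt7a* (0.44 ± 0.12) and *Wnt4* (0.36 ± 0.092) overlapped one another, and *Wnt11* (0.12 ± 0.050) was below them. The order in part depended on the length used. Per kilobase of coding sequence, *Wnt7b* in controls (7.86 to 17.2) was above *Wnt5b* (5.30 to 5.72) in every sample, and *Wnt5a* came above *Wnt5b* by its mean in both groups, with overlapping ranges. *Wnt7b* was the highest ligand in all CKO samples, and *Wnt3* was below *Wnt5b* in controls and above it in CKO samples, by either length.

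Of the summed ligand level, *Wnt7b* made up 24.5%, 20.8%, 35.6% and 21.4% in the controls. It made up 74.8%, 72.6%, 71.3% and 76.5% in the CKO samples. The sum without *Wnt7b* was 6.65 ± 0.11 in controls (6.52 to 6.76) and 6.47 ± 0.29 in CKO samples (6.19 to 6.73), so that the remaining ligands, which moved in both directions, summed to overlapping levels. The sum runs over 18 ligand genes: these 8 and 10 others, of which 0 reached the minimum for testing. *Wnt9a* was the highest of the others, at 10 to 19 reads per control sample and 13 to 22 per CKO sample. *Wnt8b* had 3 to 13 and 3 to 7 reads, and *Wnt16* had 0 to 15 and 1 to 2. *Wnt1*, *Wnt2*, *Wnt3a*, *Wnt6*, *Wnt9b*, *Wnt10a* and *Wnt10b* had at most 4 reads in any sample. *Wnt8a* was looked for but was not among the genes in the count table.

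**Figure D3:**
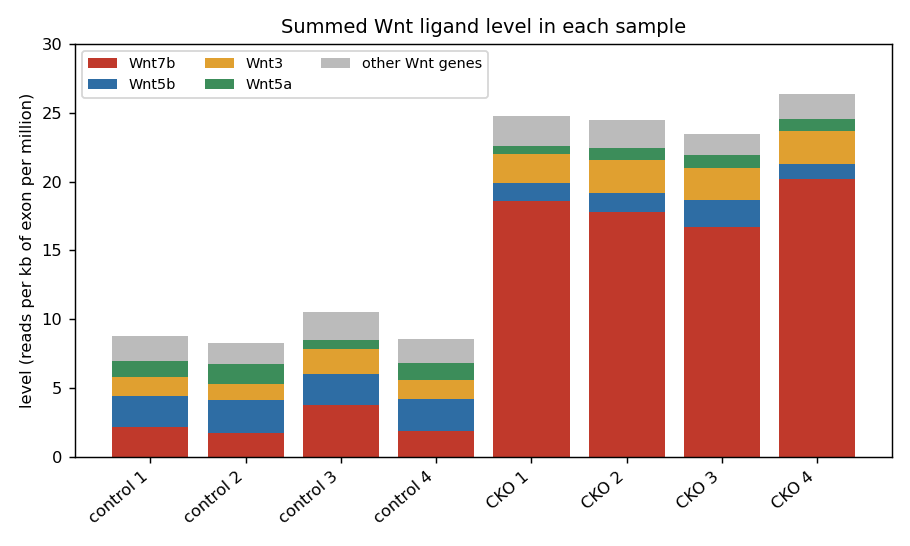
Summed level of the Wnt ligand genes in each sample (bar height, linear axis from 0, in RPKM), divided by gene. The 4 CKO bars reach 23.4 to 26.3 and the 4 control bars 8.23 to 10.5, and the *Wnt7b* segment (red) accounts for the difference in height.

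*Porcn* (chrX:8193848-8206525, minus strand), the acyltransferase without which no Wnt ligand of this list leaves the cell in active form, was the most abundant of the 10 in controls per kilobase of exon (7.67 ± 1.15, although its range overlapped that of *Wnt7b* per kilobase of coding sequence) and second to *Wnt7b* in CKO samples (11.9 ± 2.23). Its normalized counts were 343.3, 331.2, 416.7 and 297.7 in controls and 691.9, 496.2, 473.7 and 540.0 in CKO samples. Every CKO sample was above every control, with the widest step at CKO replicate 1. The means were 347 ± 50.2 and 550.5 ± 98.3, a log2FC of 0.67 with an SE of 0.13 and a 95% interval of 0.38 to 0.97, and the edgeR adjusted p of 0.0027 did not pass. It passed in DESeq2 (adjusted p = 1.2e-05) and in edgeR with no filter (adjusted p = 3.4e-06). *Porcn* lies on the X chromosome, and the embryos differed in sex (by *Xist* and Y-linked reads the female samples were replicates 1 and 4 of the controls and replicate 1 of the CKO). With sex as a covariate the log2FC was 0.70 (edgeR adjusted p = 0.0025), and without CKO replicate 1 it was 0.53 (edgeR adjusted p = 0.0030).

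*Wls* (chr3:159839672-159938664, plus strand), the carrier that takes acylated ligands to the surface, was expressed at a low level per length, 0.35 ± 0.16 in controls and 0.52 ± 0.16 in CKO samples. Its normalized counts were 66.5, 59.4, 18.3 and 44.6 in controls and 39.7, 76.7, 78.8 and 88.6 in CKO samples. Control replicate 3 was lowest of all and CKO replicate 1 lay below 3 of the controls, so the groups overlapped. The log2FC was 0.56 (95% interval -0.17 to 1.30, edgeR adjusted p = 0.22). Without control replicate 3 it was 0.31 and without CKO replicate 1 it was 0.76, and neither passed.

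Control replicate 3, lowest of the controls for *Wls*, *Wnt2b* and *Wnt5a*, was also the lowest for each of 7 ciliary margin markers measured. The summed normalized counts of these markers were 5530, 4167, 1864 and 3781 in the controls, the third being replicate 3, and 3357 to 4541 in CKO samples (1 of 7 fell, *Msx1*). *Zic1* and *Ccnd2*, the most abundant of them, were 892 and 526 in control replicate 3 and had log2FC values of 0.32 and 0.83. The log2FC was below 0 for *Msx1* (-5.29), *Wfdc1* (-2.36), *Otx1* (-1.53) and *Gja1* (-1.05), and was -0.0042 for *Bmp7*. The sum thus mixes markers that moved in both directions, and only *Msx1* passed. The amount of peripheral retina in a sample was not measured otherwise, and its part in the values of *Wls*, *Wnt2b* and *Wnt5a* was not tested. Markers of the retinal pigment epithelium summed to 273 to 496 in controls and 145 to 196 in CKO samples (1 of 5 tested fell, *Pmel*), with *Rpe65* at 0 to 1.04 in controls. Endothelial markers summed to 4364 to 4669 and 2660 to 3529. *Kdr*, which is the bulk of that sum, and *Cldn5* fell, while *Pecam1*, *Cdh5*, *Tie1*, *Esam* and *Emcn* had adjusted p-values (edgeR) of 0.66 to 0.96. Periocular mesenchyme markers summed to 210 to 293 and 272 to 578 (1 of 3 tested fell, *Col1a2*). *Pdgfra*, the most abundant of them, had 64.4 to 174.2 in controls and 192.5 to 467.4 in CKO samples. Its log2FC was 1.27, and its edgeR adjusted p of 0.016 did not pass. Lens markers summed to 46.6 to 82.6 and 66.3 to 144 (0 of 2 tested passed). Of these 2, *Cryba1* had 3.04 to 12.1 in controls and 21.5 to 58.0 in CKO samples (log2FC 2.83, edgeR adjusted p = 0.0013). *Bfsp1* had a log2FC of -0.03 (edgeR adjusted p = 0.93). Among 7 optic stalk and ventral forebrain markers (sums 832 to 989 and 796 to 862), *Otp* and *Sim1* rose from 0 to 5.03 and 0 to 1.04 in controls to 74.1 to 202.6 and 10.9 to 55.6 in CKO samples, and *Pax2* fell. None of these sums was tested for its part in the *Wnt7b* difference.

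The genes around the ligands were read from lists of Wnt pathway genes. These lists were chosen with earlier results of these data known, so their shares describe the lists only. Of 95 genes listed, 75 were tested, 11 rose and 7 fell (24.0%, against 8.61% of all genes). The median log2FC of those tested was -0.04. Of these 18, *Fzd5*, *Lrp5*, *Adgra2*, *Dvl3*, *Apc2*, *Apcdd1* and *Lgr5* passed in each of the 8 fits that left out 1 sample. The other 11 missed the cutoff in 1 or more of those fits, and *Fzd10* in all 8. Each kept the same direction, with an edgeR adjusted p of at most 0.0051. Exons of *Fzd5*, *Adgra2*, *Notum*, *Sfrp2*, *Apc2*, *Csnk1e*, *Ctnnb1*, *Lef1* and *Axin2* overlap a gene on the opposite strand, whose reads cannot be told apart there. The list for Wls recycling by retromer, its export from the endoplasmic reticulum and the fatty acid that Porcn uses held 11 genes. In edgeR 0 of 11 tested passed, with 2 in DESeq2 and 0 in limma voom, and the median log2FC was 0.0062. Of all 13891 genes tested, 2390 passed in DESeq2 and 1172 in limma voom. At an unadjusted p below 0.05 in edgeR there were 7 of the 11. The share of all genes at that p was not counted, so this 7 cannot be read as a result about the list. An adjusted p below 0.05 in edgeR, which is stricter, already took in 33.3% of all genes. *Scd1*, the desaturase that makes that fatty acid, had 494.4 to 627.9 normalized counts in controls and 709.4 to 835.6 in CKO samples (log2FC 0.40, edgeR adjusted p = 0.0039, DESeq2 adjusted p = 1.1e-04). *Snx3*, the sorting nexin that brings Wls to retromer, had a log2FC of -0.30 (edgeR adjusted p = 0.0045, DESeq2 adjusted p = 5.0e-04), and *Vps26a*, a retromer subunit, one of -0.22 (edgeR adjusted p = 0.0068).

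*Notum* encodes the secreted enzyme that removes the lipid Porcn attaches, and it fell. Its normalized counts were 150.0, 144.8, 42.2 and 99.2 in controls and 14.3, 14.7, 27.4 and 18.1 in CKO samples. The groups did not overlap, although control replicate 3 was again the lowest control. The log2FC was -2.58 (edgeR adjusted p = 4.0e-04). Among 8 secreted antagonists and R-spondins tested, *Dkk3* also fell (log2FC -0.50) and the Wnt-binding proteins *Sfrp2* (log2FC 1.06) and *Sfrp1* (log2FC 0.61) rose, with edgeR adjusted p-values of 4.5e-04 to 8.5e-04.

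Of 18 receptors and co-receptors, 0 rose and 5 fell, where 3.64% of all genes tested rose and 4.97% fell. *Fzd5*, a Frizzled of retinal progenitors, had 3168 to 3795 normalized counts in controls and 1248 to 1432 in CKO samples (log2FC -1.37, edgeR adjusted p = 1.7e-07). *Lrp5*, a co-receptor for beta-catenin signaling, fell less (log2FC -0.37, edgeR adjusted p = 1.1e-04). *Adgra2* is known to act with *Reck* as a co-receptor that is selective for Wnt7a and Wnt7b. It had 247.7, 194.7, 179.2 and 170.1 normalized counts in controls and 78.7, 75.0, 93.0 and 104.6 in CKO samples (log2FC -1.18, edgeR adjusted p = 1.3e-04). The *Adgra2* groups were well apart, in the opposite direction to *Wnt7b*. *Reck* had 336.2 to 383.2 in controls and 192.1 to 313.8 in CKO samples, with the highest at CKO replicate 1, and passed in DESeq2 (adjusted p = 9.4e-04) but not in edgeR (log2FC -0.57, adjusted p = 0.0088). The other 2 that fell were *Ror1*, a co-receptor for Wnt5a (log2FC -0.99), and *Fzd10* (log2FC -1.58).

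Inside the cell, 4 of 19 transduction genes rose and 0 fell, where 3.64% of all genes tested rose and 4.97% fell. They were *Apc2* (log2FC 0.68) and *Gsk3b* (0.41) of the beta-catenin destruction machinery, the Dishevelled gene *Dvl3* (0.41) and the kinase gene *Csnk1e* (log2FC 0.32), while the log2FC of *Ctnnb1*, beta-catenin itself, was -0.04 (edgeR adjusted p = 0.67). Of 8 feedback targets tested, *Apcdd1*, a membrane-bound inhibitor of Wnt signaling, had 163.3 to 231.6 normalized counts in controls and 514.2 to 590.1 in CKO samples (log2FC 1.51, edgeR adjusted p = 2.0e-06), and *Lgr5*, an R-spondin receptor, had 116.5 to 179.2 and 269.7 to 339.3 (log2FC 1.05, edgeR adjusted p = 1.3e-04). The other 6 did not pass, among them *Lef1* (log2FC -0.68, edgeR adjusted p = 0.014) and *Axin2*, the feedback target used most widely, with 158.7 to 192.7 in controls and 170.0 to 208.1 in CKO samples (log2FC 0.09, edgeR adjusted p = 0.52). Of 11 planar cell polarity genes, *Vangl2* (log2FC 0.30), *Celsr3* (0.71) and *Prickle2* (log2FC 0.51) rose and 0 fell, beside the same shares of all genes.

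**Figure D4:**
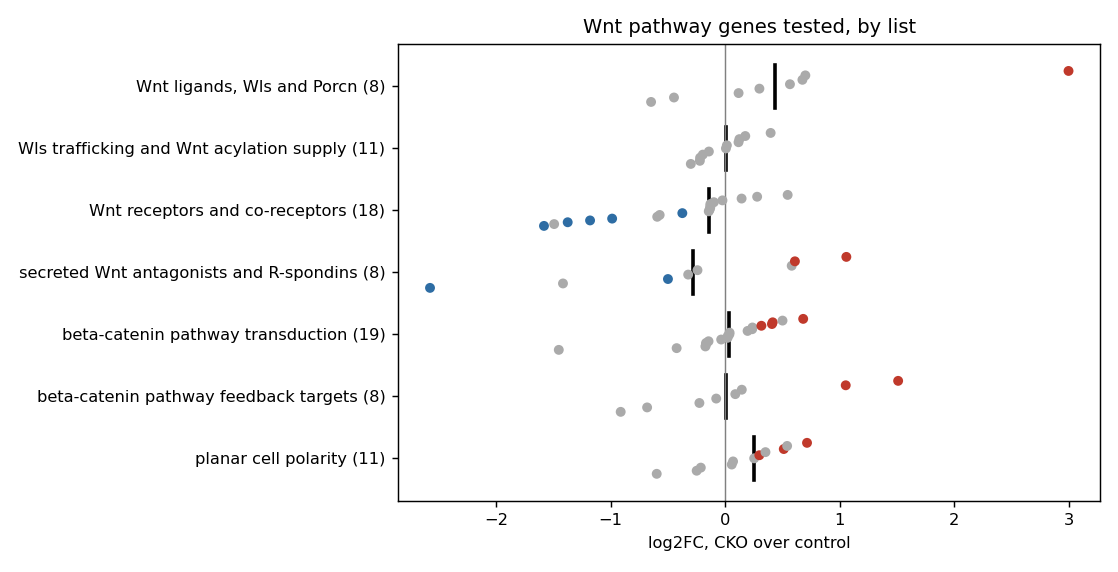
The log2FC of CKO over control for each Wnt pathway gene tested (points), by list, with the number tested in brackets and the list's median as a black bar. Red and blue points rose and fell at an adjusted p below 0.001 and grey points did not pass; *Wnt7b* at 3.00 and *Notum* at -2.58 lie at the ends, and the receptor list has 5 blue points and 0 red.

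The genes whose profile was most like that of *Wnt7b* were sought among the 12149 genes that averaged 50 normalized counts or more, by Pearson r of log2(normalized count + 1). Over the 8 samples they were *Slc2a3* (r = 0.997), a glucose transporter of neurons, *Islr2* (r = 0.996), *Panx2* (r = 0.995) and *Mapk8ip2* (r = 0.994), and these values follow the step between the genotypes that *Wnt7b* makes. After the genotype means were taken away, the 4 most alike were *Shmt2* (r = 0.990), *Jtb* (r = 0.985), *Cish* (r = 0.984) and *Znhit1* (r = 0.984). This second group describes the spread within genotypes, where control replicate 3 lies highest for *Wnt7b*. Between genotypes *Shmt2* fell (log2FC -0.48, edgeR adjusted p = 4.9e-05). *Jtb*, *Cish* and *Znhit1* did not pass (edgeR adjusted p = 0.082 to 0.85). All these r values were picked as the highest among 12149 genes over 8 samples and were not tested.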

How the data were processed

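Poly(A) RNA went into unstranded libraries that were read from 1 end for 50 cycles. Alignment was to mm10 by TopHat 2, and HTSeq gave the counts; Cufflinks also appears in the submitters' processing notes. The values the authors deposited are these raw counts per gene and sample, neither normalized nor pooled. The sources used here give no finer version of the aligner or counter, no strand setting and no annotation release, and do not assign the 3 litters and 2 days to samples.

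Genes were tested on the deposited counts by edgeR 4.0.16 (quasi-likelihood, R 4.3.3), scaled by TMM, in a model of genotype alone. The filter (20 normalized counts or more in 3 or more samples) and the cutoff (Benjamini-Hochberg adjusted p below 0.001) were those the study describes. The study applied them with DESeq2 and reports fewer features than the 13891 genes tested here. Normalized counts, from median-of-ratios size factors, serve for levels within a gene. Levels between genes are RPKM computed here from the counts, with GENCODE M21 exon lengths and the total count of each sample. Coordinates are from GENCODE M21 (GRCm38), where 28232 of 28432 gene IDs were found. The text names the 10 genes, the other Wnt ligands by level, the 3 genes with the smallest p of each pathway list, the 2 most abundant markers or the range of each marker list, and the 4 genes most like *Wnt7b* by each measure; *Ror1*, *Fzd10*, *Reck*, *Sfrp1*, *Csnk1e*, *Ctnnb1*, *Axin2* and other list or marker genes beyond these were named after their values were seen. The 10 genes and all lists were chosen with earlier results of these data known. Each sample is 1 embryo, so the p-values weigh the genotype difference against the spread between embryos. The 3 litters and 2 days they came from are not in the model, as they are not assigned to samples. The edgeR fit was checked on simulated counts. Alternatives were DESeq2 1.42.0, limma 3.58.1 voom, other scalings and filters, an adjusted p below 0.05, sex as a covariate, a block for the replicate number, and fits without each sample in turn. No set test was made.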

Additional observations from a re-analysis of the deposited data

How the results depend on the processing

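Under the alternatives, 129 of 138 comparisons of a log2FC with the reported value kept their direction and side of the cutoff in use, 7 passed where the reported value did not, and 2 turned sign, both for *Wnt2b* (-0.03 without control replicate 3, -0.040 without CKO replicate 1, from -0.040 to 0.22 over all samples left out). The comparisons at an adjusted p below 0.05 use the reported fit itself. Among the 7, *Wnt3*, *Porcn* and *Wnt5b* at that looser cutoff therefore passed with unchanged values. *Wnt7b* passed under all 17 alternatives, with a log2FC of 2.88 to 3.29. Of the 10 genes, 1 passed as reported, 3 in DESeq2 (*Wnt7b*, *Wnt3* and *Porcn*), 2 with no filter and 4 at an adjusted p below 0.05. Leaving out 1 sample at a time gave 1 to 2, and the 2 came without control replicate 3. Over all genes, 1196 passed as reported, 2390 in DESeq2, 2055 with no filter, 4619 at 0.05 and 686 (without CKO replicate 4) to 1553 (without control replicate 3) when 1 sample was left out. Of the pathway genes, 18 passed as reported, 28 in DESeq2, 29 with no filter, 41 at 0.05 and 7 to 18 when 1 sample was left out, with 7 without control replicate 2 or CKO replicate 4 and 18 without control replicate 3.

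Samples of the same number correlated at 0.13, -0.15, 0.048 and -0.12 in their deviations from the group means, and those of unlike number at -0.25 to 0.25. These values show no pairing by number. Litters and days are not assigned to samples, so whether samples share a litter or day is not known. With the replicate block, 1 of the 10 genes, 676 of all genes and 7 of the pathway genes passed.

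Depth limits *Wnt7a* and *Wnt11* most, at 2 to 33 and 3 to 13 reads per sample. With 4 embryos per group, the 95% intervals of *Wls*, *Wnt4*, *Wnt2b* and *Wnt5a* include both 0 and differences above 1.5-fold, so that neither a difference nor its absence was resolved for them.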
